A study of Sus scrofa with 36 samples.

Results

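The HSP70 and HSP110 chaperones and their helper proteins were followed through liver RNA of 36 castrated male pigs. Members were 9 genes, HSPH1, HSPA8, HSPA4, HSPA9, BAG3, DNAJB1, DNAJA1, HSPB1 and HSPB8. An array probe was matched when its accession, its gene name or a symbol in brackets in its description gave one of them. A protein name alone did not count. In addition, 6 or more of the 36 arrays had to have its spot well above background. Of these genes 8 had a probe, 29 probes in all, and all 29 passed the filter, out of 44796 passing probes that carried 11216 gene symbols in all. No probe was matched to DNAJA1, which is not analysed here. Probes were numbered within a gene by falling mean signal. A total of 28 of the 29 were well above background on all 36 arrays, and the exception, HSPH1 probe 4, was so on 6.

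The pigs were Large White (LW), a lean commercial breed, Creole (CR), a Caribbean breed, and crosses between both (F1), with 12 animals of each. In each breed 6 animals were sampled at thermoneutrality (TN, 24 °C) and 6 under heat stress (HS), which the sample labels give as 30 °C and the growth protocol as 32 °C for 5 days. Per the methods of the study, animals entered a climatic room at 11 weeks of age, adapted for 10 days, and the HS animals were killed after 4 to 5 days of heat and later than the TN animals. Slaughter day, age by a few days and temperature therefore cannot be told apart. Each array held the RNA of 1 liver, labelled with a single dye and hybridised to 60-base probes. Values are log2 of the quantile-normalized spot signal, so that a difference of 1 is a doubling. Levels of different probes cannot be compared, whereas differences between animals at 1 probe can.

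Proteins of the HSP70 family bind exposed hydrophobic stretches of unfolded proteins and release them in a cycle driven by ATP. HSP40 proteins (the DNAJ family) bring substrates and trigger ATP hydrolysis, while HSP110 and BAG proteins speed up the exchange of ADP for ATP. Small heat shock proteins hold unfolding proteins in a state from which HSP70 can refold them. In hepatocytes this machinery works constantly, since the cells secrete large amounts of plasma protein, and several of its genes are classical targets of the heat shock factor HSF1.

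Probe letters are given as the array files print them, in lower case, for 1 probe of each gene that is described in depth. HSPA8 probe 2 and HSPH1 probe 3 passed the test for HS minus TN, and HSPB1 probe 1 passed for CR minus LW. BAG3 probe 4 and HSPB8 probe 8 passed for neither, and HSPB8 probe 8 is shown because it departed from probes 1 to 6 of its gene between breeds.
HSPA8 probe 2: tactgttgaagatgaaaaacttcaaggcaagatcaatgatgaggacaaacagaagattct
HSPH1 probe 3: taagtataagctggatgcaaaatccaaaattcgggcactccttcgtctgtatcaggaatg
BAG3 probe 4: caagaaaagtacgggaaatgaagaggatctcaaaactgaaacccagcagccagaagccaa
HSPB8 probe 8: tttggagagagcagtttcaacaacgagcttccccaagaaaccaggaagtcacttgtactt
HSPB1 probe 1: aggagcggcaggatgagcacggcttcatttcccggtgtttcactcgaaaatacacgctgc
The remaining pair is shown because these probes did not move with the rest, and capitals mark each TAA, TAG or TGA in any of the 3 reading frames of the letters as printed.
HSPH1 probe 4: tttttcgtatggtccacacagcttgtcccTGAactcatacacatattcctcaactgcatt
HSPA9 probe 1: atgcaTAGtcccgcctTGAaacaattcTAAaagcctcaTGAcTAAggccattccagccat
The files tie both of these probes to a protein entry rather than to a transcript. The HSPA9 probe held 2, 1 and 2 stop codons in its 3 printed frames and 0, 3 and 0 on the reverse complement. In HSPH1 probe 4 the numbers were 0, 0 and 1 as printed and 0, 0 and 2 on the reverse complement. Stop codons lay in all 3 printed frames of 3 of the 29 probes, HSPA9 probe 1, HSPH1 probe 2 and HSPB8 probe 3. Which strand each of these probes reads was not settled here. The values of HSPH1 probe 4 and HSPA9 probe 1 can therefore not be taken as those of the mRNA of their genes.

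Several probes of 1 gene shared letters, so they are not independent measurements. BAG3 probes 1 and 2 had 57 of 60 letters in common, HSPB8 probes 2 and 3 had 54, HSPB8 probes 4 and 5 had 45, HSPB8 probes 1 and 2 had 34, HSPB8 probes 1 and 3 had 28, and DNAJB1 probes 4 and 5 had 25. An unnamed spot carried the same 60 letters as HSPA8 probe 1, and its HS minus TN difference of -0.69 (limma adjusted p = 0.013) stood beside -0.68 for the named probe.

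On the first principal component of all passing probes, 10 of 12 LW animals lay between -44.2 and -24.8 and all 12 CR animals between 2.35 and 35.36. LW TN replicates 1 and 6 lay outside the range of their breed at -4.83 and -3.04, and F1 HS replicates 1 and 2 and F1 TN replicate 3 lay below the other F1 animals at -17.02, -21.3 and -18.13. Results are given with the labelled breeds and, where a call changed, without these 5 animals as well. TN and HS arrays were equal in number on each of the 5 slides. On slide 1, however, the TN arrays were 2 LW and the HS arrays 1 CR and 1 F1. Differences within slides were taken after breed means were removed, and on slide 1 they compare animals of different breeds. Marker lists of 11 cell types, hepatocytes among them, had 0 genes past the threshold for HS minus TN with limma, and at most 2 genes of a list had an unadjusted p under 0.05. For CR minus LW several lists moved, with 7 of 8 T and NK cell genes, 6 of 7 endothelial genes and 5 of 8 macrophage genes past the threshold. Hepatocyte genes had 2 of 10 past it, and each of the other lists at most 1, beside 26.5% of all probes. The summed signal of 10 hepatocyte genes lay between 21.14 and 21.25 in TN and between 21.18 and 21.29 in HS on the log2 scale. In whole liver, fewer cells of a type and less RNA per cell cannot be told apart.

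HS livers had less signal than TN livers for HSPA8, HSPH1, BAG3 and HSPB8. With breed in the limma model, 9 of the 29 probes passed an adjusted p of 0.05, and all 9 were lower in HS. They were both HSPA8 probes, 3 of 4 for HSPH1, 1 of 6 for BAG3 and 3 of 8 for HSPB8. Over all probes 0.859% were called, and 0.424% were called as lower in HS. At an unadjusted p under 0.05 there were 23 of the 29 probes, against 13.1% of all probes. The difference was below 0 at 26 of the 29 probes, with a median of -0.30 against 0.0011 over all probes. The 3 others were the HSPA9 probe and both HSPB1 probes. The members were chosen with earlier results of these data known, and several probes of 1 gene share letters. These counts are therefore no test of the members against all probes. DNAJB1 fell short of the threshold at all 5 probes and HSPA4 at its only probe. The count was 3 without the 5 animals that stood apart, when 0.708% of all probes were called, and 4, 2, 0, 2 and 3 without slides 1 to 5 in turn, and it was 14 with slide as a block. Without 1 array it ran from 5 to 13, and it was 5 without any 1 of LW TN replicate 2, LW HS replicates 1, 4 and 6, CR TN replicates 3, 5 and 6, CR HS replicates 3, 4 and 5, F1 TN replicates 1 and 4, and F1 HS replicates 1, 2 and 6. The share of all probes called is not given for the fits without a slide or an array, or with slide as a block. A change in the member count there cannot be told from a change in calls over all probes.

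**Figure D1:**
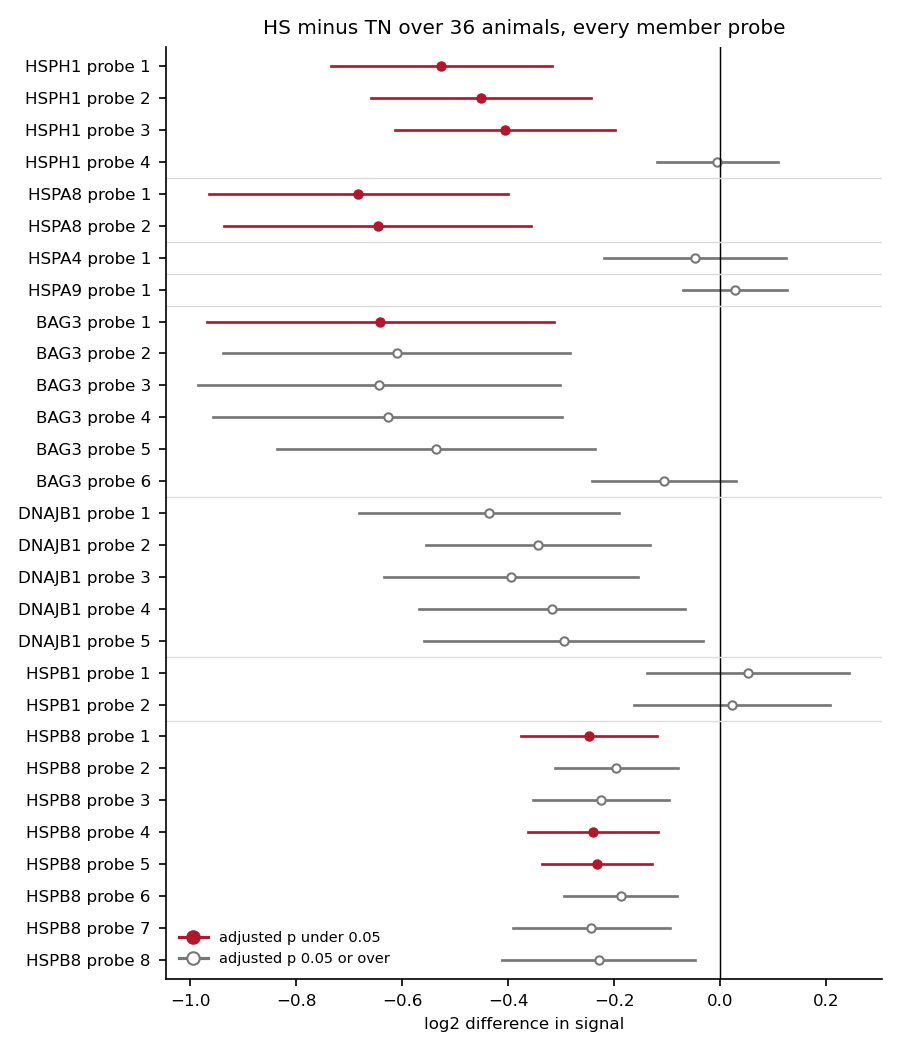
Difference in log2 signal between HS and TN livers for each of the 29 probes, from the limma model with breed over 36 animals. Points are estimates, lines are 95% confidence intervals, and filled red points passed an adjusted p of 0.05; the probes of HSPA8, HSPH1 (except probe 4), BAG3 (except probe 6), DNAJB1 and HSPB8 lie left of 0, those of HSPA4, HSPA9 and HSPB1 around it.

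HSPA8 encodes HSC70, the HSP70 protein that is present in cells without stress. At HSPA8 probe 1 the log2 signal in LW ran from 12.75 over a median of 13.20 to 14.36 in TN and from 12.41 over 12.75 to 12.88 in HS. In CR it ran from 12.56 over 13.05 to 13.67 in TN and from 11.61 over 12.06 to 13.28 in HS. In F1 it ran from 12.73 over 13.08 to 13.83 in TN and from 11.75 over 12.64 to 12.73 in HS. TN and HS animals met at the edges of their ranges in LW and F1 and overlapped more widely in CR. Over breeds TN livers averaged 13.17 ± 0.45 and HS livers 12.49 ± 0.46 (SD, n = 18). HS thus differed from TN by -0.68 ± 0.139 (SE, limma adjusted p = 0.013), or 37.7% less signal. Of 18 HS animals 17 lay below the TN mean of their breed and 7 below the lowest TN animal of any breed.

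HSPA8 probe 2, which shared no run of 16 or more letters with probe 1, differed by -0.65 ± 0.143 (SE, limma adjusted p = 0.023), and both probes followed each other across animals with r = 0.987 after group means were removed. Both stayed past the threshold without any 1 of the 36 arrays and without the 5 animals that stood apart. Within the 5 slides taken singly, the difference of probe 1 was between -0.32 and -0.87. Without slide 2, 3 or 4 its adjusted p no longer passed, at differences of -0.68, -0.63 and -0.65.

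HSPH1 encodes HSP110, a large relative of HSP70 that acts on it as a nucleotide exchange factor. At HSPH1 probe 1 the LW animals ran from 8.26 over a median of 8.47 to 9.58 in TN and from 8.02 over 8.09 to 8.31 in HS. The CR animals ran from 8.12 over 8.49 to 8.87 in TN and from 7.73 over 7.93 to 8.60 in HS. The F1 animals ran from 7.998 over 8.64 to 9.08 in TN and from 7.66 over 8.10 to 8.32 in HS. In LW only the highest HS animal reached the TN range, in F1 the lowest TN animal lay among the HS animals, and in CR the 2 highest HS animals lay among the TN animals. TN livers averaged 8.59 ± 0.37 and HS livers 8.07 ± 0.24 (SD, n = 18). HS thus differed from TN by -0.53 ± 0.103 (SE, limma adjusted p = 0.0091), or 30.6% less signal. It was negative in 17 of 18 HS animals relative to the TN mean of their breed, and in each of the 5 slides, between -0.27 and -0.66. Without slide 3 or 4 the call was lost, at -0.50 in both fits.

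HSPH1 probes 2 and 3 differed by -0.45 and -0.41 (limma adjusted p = 0.025 and 0.046). Probes 1 and 2 stayed past the threshold without any 1 array, while probe 3 did so in 10 of 36 such fits. Probe 1 alone remained past the threshold without the 5 animals that stood apart. Across animals probes 1 to 3 had r between 0.803 and 0.909 with each other after group means were removed, and between 0.146 and 0.325 with probe 4. Probe 4 was well above background on 3 TN and 3 HS arrays, at 5.14 ± 0.18 and 5.14 ± 0.15 (SD, n = 18), and it was well above background on none of the 12 CR arrays. Its difference of -0.01 (limma adjusted p = 0.98, 95% interval from -0.12 to 0.11) is therefore a value near the floor of the array.

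HSPA4 encodes another protein of the HSP110 kind. Its probe was at 7.39 ± 0.24 in TN and 7.34 ± 0.32 in HS (SD, n = 18), with a difference of -0.05 and a 95% interval from -0.22 to 0.12 (limma adjusted p = 0.88). Within breeds LW had -0.23, CR 0.09 and F1 0.0032. HSPA9 encodes mortalin, the HSP70 of mitochondria, and its probe was at 6.22 ± 0.17 in TN and 6.24 ± 0.11 in HS (SD, n = 18). HS differed by 0.03 with an interval from -0.07 to 0.13 (limma adjusted p = 0.88). A further 3 probes described in the files by the protein name but not counted as members were added after the data had been seen. They differed by 0.03, 0.0075 and -0.0035 between HS and TN (limma adjusted p between 0.90 and 0.99). Of these, A_72_P388638 and A_72_P305334 were well above background on all 36 arrays, with mean log2 signals of 14.72 and 14.10. They followed each other with r = 0.873 across animals. HSPA9 probe 1, with a mean of 6.23, had r of -0.076 and 0.056 with them. Which of these probes read the HSPA9 transcript was not tested, so the values of probe 1 cannot be taken as those of HSPA9 mRNA.

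BAG3 is a co-chaperone that binds HSP70 through its BAG domain, releases ADP from it and links it to small heat shock proteins and to autophagy. At BAG3 probe 1 the LW animals ran from 11.39 over a median of 11.99 to 12.52 in TN and from 11.01 over 11.58 to 12.86 in HS. The CR animals ran from 11.86 over 12.05 to 13.21 in TN and from 11.14 over 11.57 to 11.98 in HS. The F1 animals ran from 12.07 over 12.35 to 14.02 in TN and from 11.24 over 11.66 to 11.94 in HS. All 6 F1 HS animals lay below all 6 F1 TN animals, the CR ranges overlapped at the edge, and in LW the highest animal of all was under HS. Over breeds TN livers averaged 12.28 ± 0.59 and HS livers 11.64 ± 0.41 (SD, n = 18). HS thus differed from TN by -0.64 ± 0.162 (SE, limma adjusted p = 0.046).

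Probes 2 to 5 of BAG3 differed by -0.61, -0.64, -0.63 and -0.54, with limma adjusted p between 0.050 and 0.068, and probe 6 by -0.11 (limma adjusted p = 0.54). An unnamed spot with the same letters as probe 2 differed by -0.61 (limma adjusted p = 0.060). At each of probes 1 to 5, 17 of 18 HS animals lay below the TN mean of their breed. The call of probe 1 was lost in 24 of 36 fits without 1 array, without any 1 slide, and without the 5 animals that stood apart, where its difference was -0.51. Within slides the difference was negative in all 5 and ran from -0.26 to -1.18. Probe 6 was a dim probe at 6.23 ± 0.21 in TN and 6.12 ± 0.21 in HS (SD, n = 18), and it had the lowest correlations with the other BAG3 probes, the lowest being r = 0.269, against a median of 0.948 over the 15 pairs.

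DNAJB1 encodes HSP40, the J-domain protein that delivers unfolded proteins to HSPA8. None of its 5 probes passed the threshold, with all 5 at an unadjusted p under 0.05 in limma. A further probe described by the protein name and added after the data had been seen, A_72_P098571, was well above background on 26 arrays and differed by -0.13 (limma adjusted p = 0.49). At DNAJB1 probe 1 the values ran from 11.22 over a median of 11.72 to 12.52 in TN and from 10.51 over 11.39 to 11.89 in HS, with means of 11.79 ± 0.41 and 11.36 ± 0.35 (SD, n = 18). The ranges overlapped, although each of the 18 HS animals lay below the TN mean of its breed. HS differed from TN by -0.44 ± 0.121 (SE) with a 95% interval from -0.68 to -0.19 (limma adjusted p = 0.070), and it was negative within each of the 5 slides, between -0.32 and -0.51. Probes 2 to 5 differed by -0.34, -0.40, -0.32 and -0.30 (limma adjusted p between 0.096 and 0.30). At these probes 15, 16, 13 and 11 of 18 HS animals lay below the TN mean of their breed. Probes 2 and 3 were negative within each of the 5 slides. Probe 4 was at 0.17 on slide 1, and probe 5 at 0.11 and 0.0052 on slides 1 and 2.

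HSPB8 and HSPB1 are small heat shock proteins, the first of which forms a complex with BAG3 and HSP70. At HSPB8 probe 5 the LW animals ran from 11.70 over a median of 12.06 to 12.21 in TN and from 11.67 over 11.79 to 12.01 in HS. The CR animals ran from 12.08 over 12.33 to 12.45 in TN and from 11.85 over 12.04 to 12.27 in HS. The F1 animals ran from 12.09 over 12.27 to 12.38 in TN and from 11.78 over 12.06 to 12.34 in HS. The ranges overlapped in every breed, and the medians were lower in HS in every breed. TN livers averaged 12.20 ± 0.19 and HS livers 11.96 ± 0.19 (SD, n = 18). HS thus differed from TN by -0.23 ± 0.0511 (SE, limma adjusted p = 0.022), or 14.9% less signal, with 17 of 18 HS animals below the TN mean of their breed.

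All 8 HSPB8 probes differed in the same direction, by -0.19 to -0.25, and probes 1 and 4 also passed (limma adjusted p = 0.048 and 0.045). The differences of the other 5 had limma adjusted p between 0.073 and 0.23, and all 8 probes were negative within each of the 5 slides. Probe 5 stayed past the threshold without any 1 array, although in only 1 of 5 fits without 1 slide, whereas probes 1 and 4 did so in 10 and 11 of 36 such fits, and no HSPB8 probe passed without the 5 animals that stood apart. In contrast, HSPB1, whose product HSP27 is the best known small heat shock protein, was at 12.93 ± 0.33 in TN and 12.98 ± 0.34 in HS (SD, n = 18) at its probe 1. The difference was 0.05 with a 95% interval from -0.14 to 0.24, and 0.02 at probe 2 (limma adjusted p = 0.88 and 0.96). At probe 1, 7 of 18 HS animals lay below the TN mean of their breed. The value of probe 1 within slides ran from -0.26 to 0.58.

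**Figure D2:**
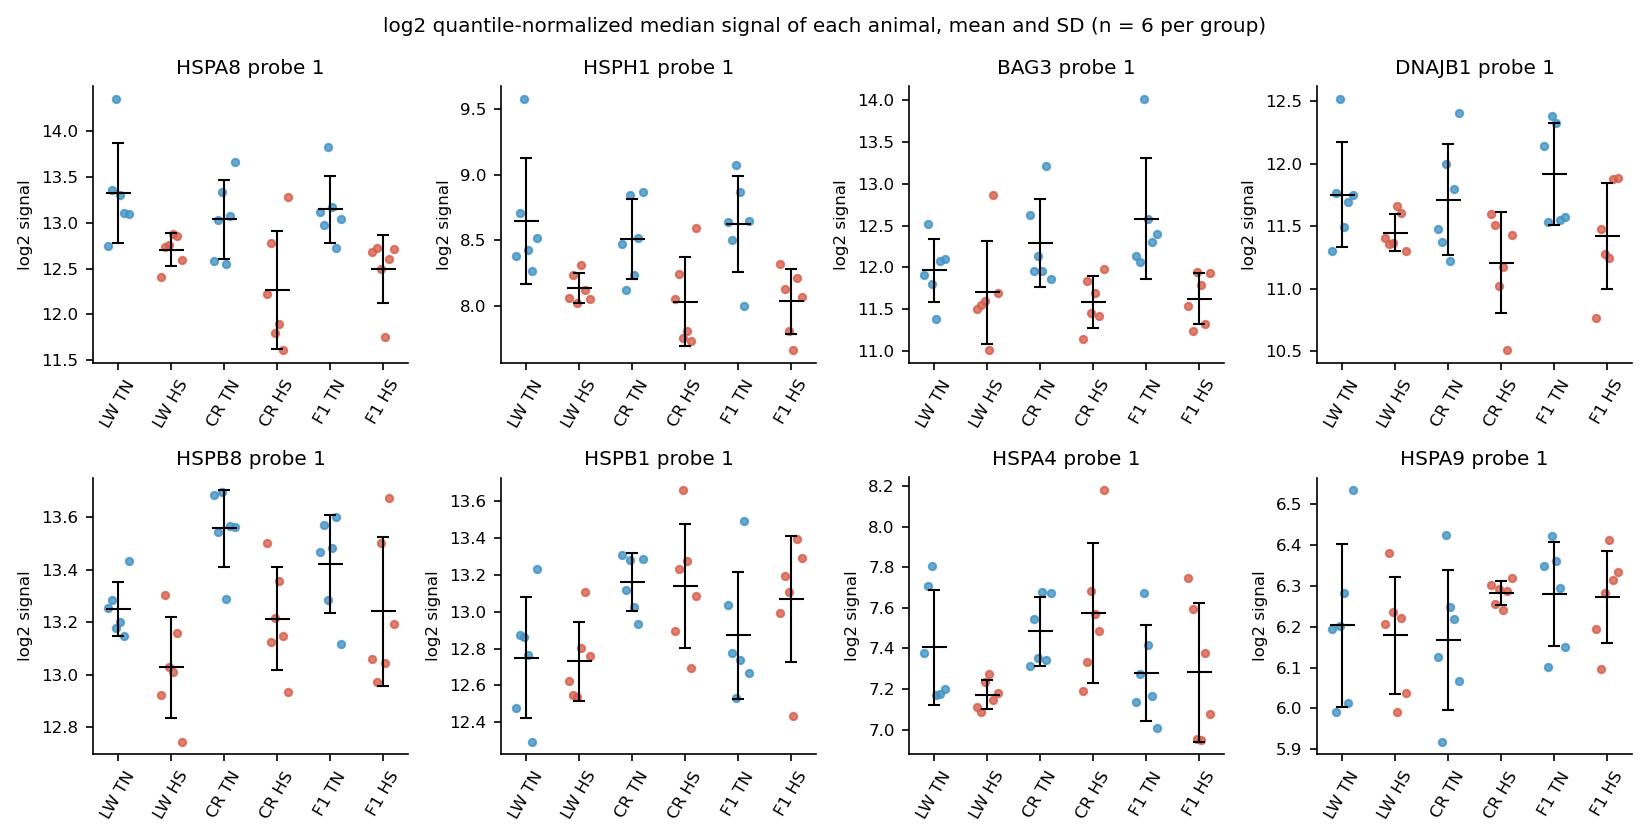
Log2 signal of each animal at the brightest member probe of the 8 genes, by breed and temperature, with TN in blue and HS in red. Long bars are group means and short bars 1 SD (n = 6 per group); axes differ between panels, and the HS animals of HSPA8, HSPH1, BAG3, DNAJB1 and HSPB8 sit mostly below the TN animals of the same breed, while those of HSPB1, HSPA4 and HSPA9 are mixed with them.

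Whether breeds differed in these temperature differences was tested as an interaction. None of the 29 probes passed with limma, 0 had an unadjusted p under 0.05, and the smallest adjusted p was 0.995. Over all probes 0% were called. HSPA8 probe 1 had HS minus TN values of -0.62 for LW, -0.78 for CR and -0.65 for F1, and HSPH1 probe 1 had -0.51, -0.48 and -0.59. BAG3 probe 1 had -0.26 for LW, -0.71 for CR and -0.96 for F1 (interaction unadjusted p = 0.213). The LW value of BAG3 was -0.49 without LW HS replicate 5, the F1 value was -0.67 without F1 TN replicate 3, and F1 was at -0.55 without the 5 animals that stood apart. HSPB8 probe 5 differed by -0.22, -0.27 and -0.21 in the same order, and DNAJB1 probe 1 by -0.30, -0.51 and -0.50. Within a single breed no member probe passed with limma. Probes with an unadjusted p under 0.05 numbered 7 in LW, 19 in CR and 17 in F1, where all probes gave 5.12%, 7.4% and 9.31%. Over all probes 0% were called within LW, 0% within CR and 0.00893% within F1. With 6 animals per group, the standard error of HSPA8 probe 1 within a breed was 0.247, against 0.139 over breeds.

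Breeds were then compared with temperature in the model. Both HSPB1 probes and 6 of 8 HSPB8 probes were higher in CR than in LW, and no member probe of HSPA8, HSPH1, HSPA4 or HSPA9 passed. For HSPA9 this concerns only its dim probe 1. The brighter HSPA9 probes A_72_P388638 and A_72_P305334, added after the data had been seen, did pass, at 0.21 and 0.20 (limma adjusted p = 0.020 and 0.033). Of 3 other small heat shock protein genes measured, 0 passed for CR minus LW with limma at the brightest probe. Between CR and LW 8 of 29 probes were called, all higher in CR, beside 26.5% of all probes. That share is near the background, so the count does not set these genes apart. At HSPB1 probe 1 the LW animals ran from 12.29 over a median of 12.76 to 13.23 and the CR animals from 12.69 over 13.17 to 13.66, and 11 of 12 CR animals lay above the LW mean. CR exceeded LW by 0.41 ± 0.115 (SE, limma adjusted p = 0.0079), and 0.32 at probe 2 (limma adjusted p = 0.031). The ranges overlapped, with 5 CR animals above the highest LW animal. The call of probe 1 was lost without slide 2 or 3. Markers of T and NK cells, endothelium and macrophages also differed between these breeds, for example CD163 by -1.16, and their part in the member values was not tested.

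HSPB8 probes 1 to 6 were higher in CR by 0.23 to 0.27 (limma adjusted p between 0.0028 and 0.023). At probe 5 the LW animals ran from 11.67 over a median of 11.92 to 12.21 and the CR animals from 11.85 over 12.15 to 12.45, and 6 of 12 CR animals lay above every LW animal. HSPB8 probes 7 and 8 differed by -0.01 and -0.05 (limma adjusted p = 0.94 and 0.78), with 95% intervals from -0.19 to 0.17 and from -0.27 to 0.17. The files place probes 7 and 8 on another transcript entry of the gene than probes 1 and 3 to 6, and their correlation with each other across animals was r = 0.879, against 0.316 to 0.676 with probes 1 to 6. The probes of this gene therefore disagreed on the breed comparison, although not in the direction of HS minus TN. The call of HSPB8 probe 1 was lost without slide 1, 2 or 4, with the processed signal and with the authors' log2 table.

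HSPB8 probes 2 to 6 were higher in F1 than in LW by 0.22 to 0.24 (limma adjusted p between 0.0088 and 0.045), the only 5 member probes called, beside 18.4% of all probes, so that the count is no higher than the background. It was 0 with the authors' log2 table and without slide 2 or 4, 1 without slide 3, and 3 with the processed signal. HSPB8 probe 1 differed by 0.19 (limma adjusted p = 0.077) and HSPB1 probe 1 by 0.23 (limma adjusted p = 0.16). Between F1 and CR 0 member probes passed with limma, 1 had an unadjusted p under 0.05 (HSPA4), against 12.5% of all probes, and 1.5% of all probes were called. Against the mid-parent value, the mean of LW and CR, 0 passed with limma, beside 1.12% of all probes, and 0 had an unadjusted p under 0.05, against 15.2% of all probes.

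Without the 5 animals that stood apart, 10 member probes were called between CR and LW beside 33% of all probes, the additional ones being both HSPA8 probes. The CR minus LW difference of HSPA8 probe 1 was -0.46 in that fit, against -0.36 over all animals (limma adjusted p = 0.11). Between F1 and LW 7 were then called beside 32.3% of all probes, HSPB8 probes 1 to 6 and, lower in F1, HSPB8 probe 8. Between F1 and CR 1 was called beside 2.39%, HSPA4, with a difference of -0.38 against -0.25 over all animals. Against the mid-parent value 2 were called beside 17%, HSPA4 with -0.27 and HSPB8 probe 8 with -0.30. The HSPA9 probes added after the data had been seen differed between CR and LW by 0.21 and 0.20 over all animals at A_72_P388638 and A_72_P305334 (limma adjusted p = 0.020 and 0.033), beside 0.03 at HSPA9 probe 1.

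**Figure D3:**
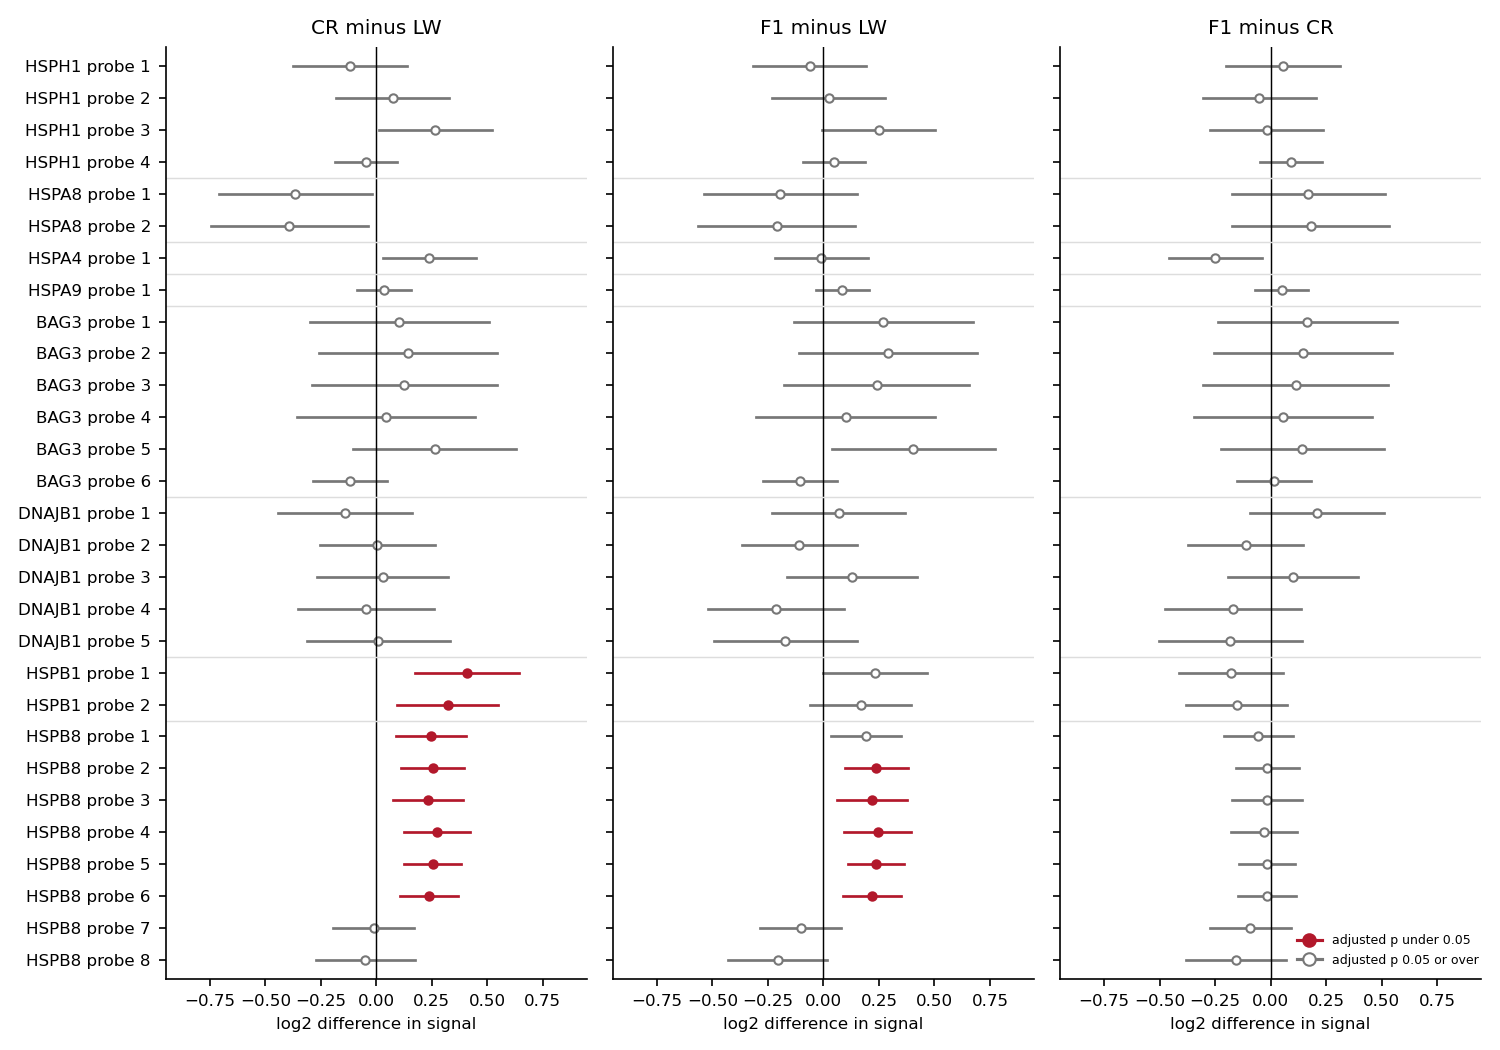
Difference in log2 signal between breeds for each of the 29 probes from the limma model with temperature over 36 animals. Points are estimates, lines 95% confidence intervals, and filled red points passed an adjusted p of 0.05; the filled points are HSPB1 and HSPB8 probes 1 to 6 for CR minus LW and HSPB8 probes 2 to 6 for F1 minus LW.

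Animals of the same group also differed from each other, and 4 of the 8 genes, HSPA8, HSPH1, DNAJB1 and HSPA4, were correlated in 5 of 28 pairs. Group means were removed from the brightest member probe of each gene. The 28 pairs of genes were correlated over 36 animals (permutation of animals within groups, 100000 resamples, two-sided, Benjamini-Hochberg adjustment over 28 pairs). HSPA8 and HSPH1 had the highest correlation, r = 0.865 and Spearman's rho = 0.840 (permutation p = 1e-05, the smallest that these resamples can give, adjusted p = 0.00028 and 0.00014). It was 0.844 without the 2 animals farthest from the median of HSPH1, and 0.867 with slide means removed. It was 0.865 within TN, 0.910 within HS, and between 0.836 and 0.909 within each breed. All values come from the same 36 arrays, and some animals were littermates.

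DNAJB1 followed HSPA8 with r = 0.707 (rho = 0.7104, permutation p = 4e-05, adjusted p = 0.00056) and HSPH1 with r = 0.693 (rho = 0.707, permutation p = 8e-05, adjusted p = 0.000747). Without the 2 animals farthest from the median of HSPA8, and of HSPH1, the values were 0.682 and 0.621 in turn. The correlation of DNAJB1 with HSPA8 was 0.873 within TN and 0.505 within HS, and the difference between these was not tested. All these values are for DNAJB1 probe 1. Its r with probes 2 to 5 of the same gene was 0.738, 0.877, 0.441 and 0.514, and those probes were not correlated with other genes. HSPA4 followed HSPH1 with r = 0.564 (permutation p = 0.0016, adjusted p = 0.011) and HSPA8 with r = 0.537 (permutation p = 0.00465, adjusted p = 0.026). Neither passed with rho, which was 0.421 and 0.397 (permutation p = 0.023 and 0.030, adjusted p = 0.16 and 0.17). The correlation of HSPA4 with HSPA8 fell to r = 0.334 without the 2 animals farthest from the median of HSPA8. It was 0.598 within TN, 0.491 within HS, and between 0.389 and 0.684 within each breed. How far it rests on those 2 animals was not tested.

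BAG3 did not follow the other genes in this way. Its correlations with the 7 others lay between -0.073 and 0.224, with HSPA8 at 0.203 (rho = 0.113, permutation p = 0.20 and 0.52, adjusted p = 0.58 and 0.79) and HSPH1 at 0.166. HSPB8 with HSPA8 was at -0.123, and HSPB8 with HSPB1 at 0.372 (rho = 0.374, permutation p = 0.046 for r, adjusted p = 0.22 and 0.18). With slide means removed the HSPB8 and HSPB1 pair passed, at r = 0.475 (permutation p = 0.0061, adjusted p = 0.029), which made 6 pairs.

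**Figure D4:**
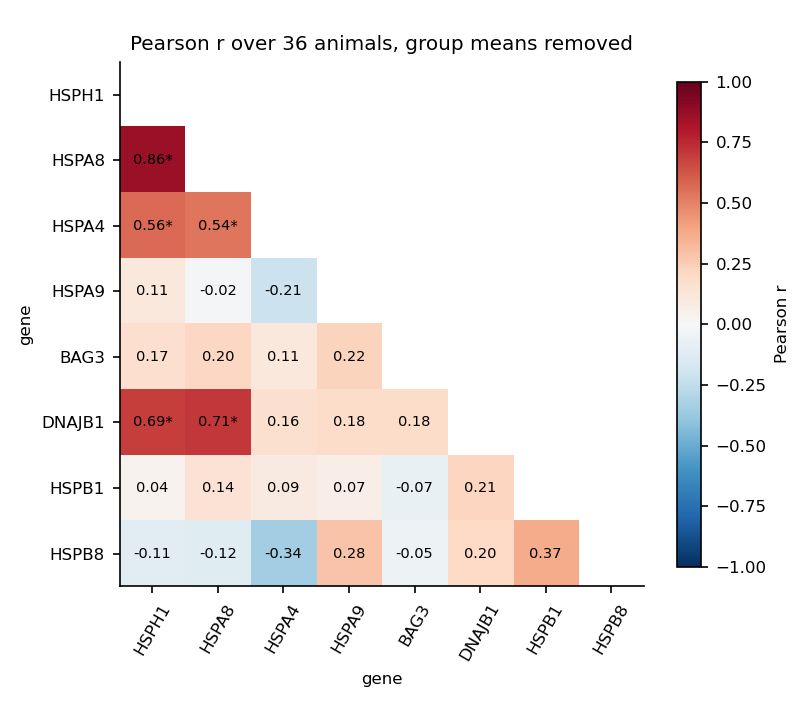
Pearson correlation between the brightest member probes of the 8 genes over 36 animals after group means were removed. Each cell gives r, with an asterisk for an adjusted permutation p under 0.05. The 5 marked cells join HSPH1, HSPA8, HSPA4 and DNAJB1, and the cells of BAG3, HSPA9, HSPB1 and HSPB8 carry no mark. The HSPA9 cells are for its probe 1, which did not follow the brighter HSPA9 probes added later (r of -0.076 and 0.056).

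**Figure D5:**
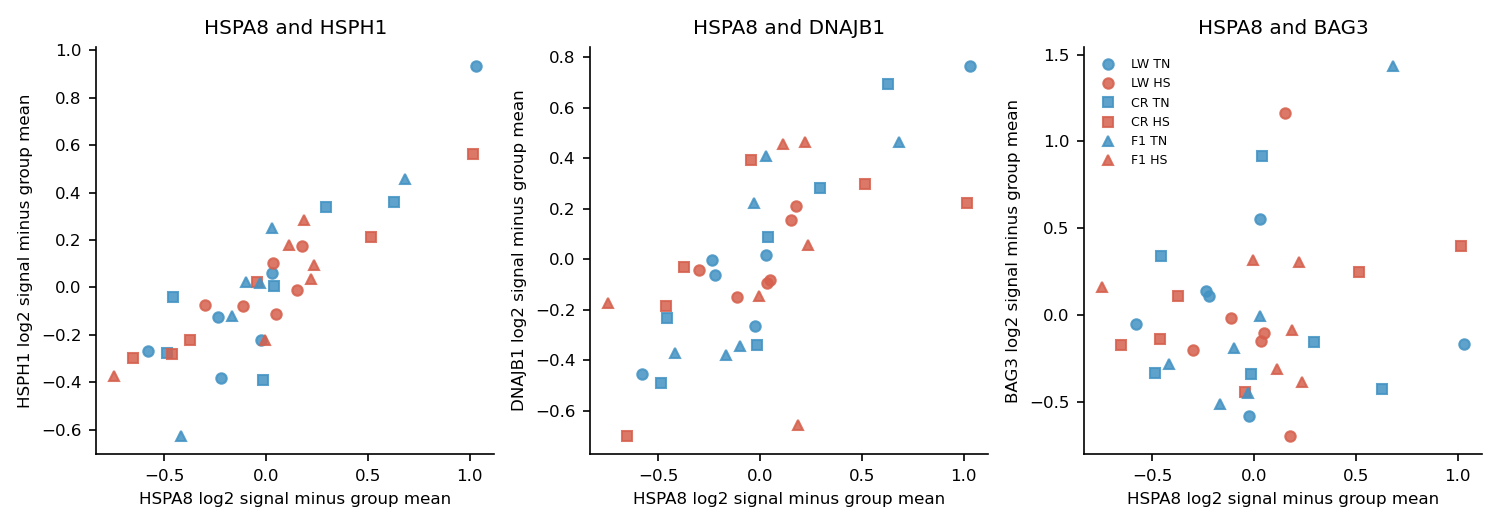
Log2 signal minus the group mean of HSPH1, DNAJB1 and BAG3 against that of HSPA8, 1 point per animal, with shapes for breeds and colours for temperature. Points of HSPH1 and DNAJB1 rise with HSPA8 (r = 0.865 and 0.707), and those of BAG3 scatter (r = 0.203), with 1 F1 TN and 1 LW HS animal high for BAG3.

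Among 11198 other gene symbols, HSPH1 was the one whose signal was most like that of HSPA8 by this measure, and HSPA8 the one most like HSPH1. After HSPH1, the closest to HSPA8 were TMED7 (r = 0.846), PTGES3 (0.8288), EIF4E (0.818) and MORF4L2 (0.817). After HSPA8, the closest to HSPH1 were CACYBP (0.838), EIF4E (0.807), LRRC59 (0.796) and ABCE1 (0.795). DNAJB1 stood at rank 36 for HSPA8 and 42 for HSPH1, HSPA4 at 289 and 205, and BAG3 at 2867 and 3086. The HS minus TN difference was -0.05 for TMED7, -0.02 for PTGES3, -0.06 for EIF4E and -0.20 for CACYBP.

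The wider chaperone network was described through 6 lists of other genes, 105 in all, of which 78 had a passing probe. None passed for HS minus TN with limma at its brightest probe, 9 had an unadjusted p under 0.05, and 49 of 78 lay below 0 with a median of -0.02. Over all probes 13.1% had an unadjusted p under 0.05 and 49.4% lay below 0, so the count of 9 is no higher than the background. The 8 measured genes of other HSP70 and HSP110 proteins had a median of -0.04, the 34 of other HSP40 proteins -0.03, the 11 of nucleotide exchange factors and HSP70 cofactors -0.02, the 3 of other small heat shock proteins 0.06, the 9 of chaperonins -0.04, and the 13 of HSP90 and heat shock factors -0.06. Closest to the threshold, and named after their values were seen, were AHSA1, an activator of the HSP90 ATPase, at -0.21 (limma adjusted p = 0.054) and DNAJC4 at 0.15 (limma adjusted p = 0.068). HSPA1A and HSPA1B, the HSP70 genes that are induced by heat, had no matched probe and are not analysed here.

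Of the genes listed by name, HSPA5, the HSP70 of the endoplasmic reticulum, differed by -0.22 (limma adjusted p = 0.60) and HSP90AA1, the inducible HSP90, by -0.18 (limma adjusted p = 0.58), with standard errors of 0.151 and 0.118. HSP90AB1, its constitutive partner, differed by 0.12 (limma adjusted p = 0.39) and HSF1 by -0.06 (limma adjusted p = 0.63). The mitochondrial chaperonins HSPD1 and HSPE1 differed by 0.06 and 0.02 (limma adjusted p = 0.84 and 0.91).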

How the data were processed

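Liver RNA of 36 pigs was measured on Agilent 1-colour arrays with 61625 spots. The authors deposited 1 scanner table per array from Feature Extraction 10.10.1.1, with linear spot intensity, unnormalized between arrays, and flags (other values) for spots above background. They also deposited a table of log2 values for 42051 probes, quantile normalized per their methods. Its probe means had an SD of 0.0533, against 2.64 for the scanner values of the same probes, and its column medians were 7.6564 to 7.6585. Genes were thus centred and absolute levels unknown, so only differences were taken from it. Per the methods of the study the annotation was updated on Sscrofa11.1, which was not used here: gene names came from the scanner files, matched by accession or gene number to the RefSeq gene table where possible, and no coordinates are given.

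Median signals were log2 transformed and quantile normalized over 60306 non-control spots, 107 non-uniform spots were set as missing, and probes well above background on at least 6 arrays were kept (74.3%). Between 39644 and 44025 spots per array were well above background with 0 saturated spots. Precision is limited by how many arrays there were.

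Groups came from the breed and temperature labels, and replicate numbers only name animals. The test was limma's two-sided moderated one (version 3.58.1, R 4.3.3, functions lmFit, eBayes), p-values being adjusted after Benjamini-Hochberg across 44796 probes with a threshold of 0.05, with breed and temperature as terms, and with a 6-group model for the interaction (moderated F test) and for contrasts within breeds. Pen, slaughter day and parents, random effects in the model of the study, are not in the labels and were not fitted. With 4 littermates in each block of animals, the animals were not fully independent. Correlations used Python 3.11.15 and scipy 1.17.1. On simulated data for HS minus TN over 44723 probes with 200 changed, a log2 change of 0.3 was recovered for 65.5%, of 0.5 for 92.5% and of 1 for 96.5% of them. The noise was independent between animals, without litters or slides, and the changed probes were drawn at random. Over all passing probes the median standard error was 0.063, below that of probe 1 of HSPA8, BAG3 and DNAJB1. These shares therefore do not apply to such probes.

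The members, the gene lists and the alternatives were chosen with earlier results of these data known. All member probes are given, and the brightest passing probe matched to a gene stands for it in correlations and lists. The 5 symbols most like HSPA8 and HSPH1 were named by rank. HSPA5, HSPD1, HSPE1, HSP90AA1, HSP90AB1 and HSF1 were named whatever their values. With no DNAJA1 probe, 28 gene pairs were correlated. Alternatives were the processed signal, the authors' log2 table, normexp (offset 50), other filters, slide as a block, array weights, a trended spread, no breed term, membership by gene name alone (20 probes), and dropping single arrays or slides. Adding probes tied to a member by words or letters, and leaving out 5 animals apart from their breed on the first principal component, were chosen after seeing the data.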

Additional observations from a re-analysis of the deposited data

Results flagged for a closer look

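Within groups of 6 animals, the gap between the most extreme animal and its neighbour, divided by the range of the group, was above Dixon's critical value in 16 of 174 combinations of probe and group (9.2%), while chance gives about 5%. Since probes of 1 gene share animals and letters, these are not independent. F1 TN replicate 3 was the highest of its group at 4 BAG3 probes, with gaps of 0.739 at probe 1, 0.789 at probe 2, 0.781 at probe 3 and 0.770 at probe 4. It is also 1 of the 5 animals apart from their breed on the first principal component. LW HS replicate 5 was the highest of its group at BAG3 probes 1, 4 and 5 (0.634, 0.626 and 0.746), and CR TN replicate 5 at BAG3 probe 3 (0.791).

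LW TN replicate 3 was the highest of its group at HSPH1 probes 1 and 2 (0.662 and 0.783). F1 HS replicate 4 was the lowest of its group at HSPA8 probe 1 (0.758) and HSPB1 probe 2 (0.671). CR TN replicate 4 was the lowest at HSPB8 probes 1 and 4 (0.631 and 0.686), CR TN replicate 1 the lowest at DNAJB1 probe 4 (0.631), and LW TN replicate 2 the highest at HSPB8 probe 7 (0.758).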

How the results depend on the processing

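The count of 9 member probes for HS minus TN was 5 without a filter, 14 with slide as a block, 4 without a breed term, 3 without the 5 animals apart (chosen after seeing the data), 4, 2, 0, 2 and 3 without slides 1 to 5, and 5 to 13 without 1 array. Of these settings, the share of all probes called is given only for the fit without the 5 animals. For CR minus LW the count was 8, and 1 of 20 probes taken by gene name alone. Membership by gene name alone leaves out both HSPB1 probes and all HSPB8 probes except probe 2. For F1 minus LW the count was 5, with 3 for the processed signal, 0 for the authors' log2 table and 1 by gene name alone. Without slides 2, 3 and 4 it was 0, 1 and 0. Without the 5 animals F1 minus CR gave 1 and the mid-parent comparison 2, against 0. Pathway genes were 0, and 1 with the processed signal, 2 with normexp, 1 with probes above background on all 36 arrays, 2 with slide as a block, and 0 to 2 without 1 array (2 without LW TN replicate 1). Correlated pairs were 5, and 3 with the authors' table, 3 with Spearman's rho, 6 with slide means removed, and 3 to 5 without 1 array (3 without LW TN replicate 3 or CR HS replicate 6).

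Reversals concerned values that were not called. The HSPA4 representative probe, F1 minus LW, at -0.0090, was 0.0332 with the processed signal, 0.0480 with the authors' table, 0.000936 with slide as a block, 0.0411 without slide 2, 0.0438 without slide 5 and -0.0546 to 0.0373 without 1 array. HSPH1 F1 minus LW was 0.0415 without slide 2 and -0.11 to 0.0246 without 1 array. Without slide 4, DNAJB1 F1 minus LW was -0.0428, HSPA9 CR minus LW -0.0083, HSPB1 HS minus TN -0.10 and HSPH1 F1 minus CR -0.0685. Without the 5 animals, HSPH1 F1 minus CR was -0.0342 and HSPB8 F1 minus CR 0.0082. The cause was not tested. No paired analysis was possible because the labels carry no replicate numbers shared between groups. Dim probes near background carry only a bound, and HSPH1 probe 4, whose strand was not settled, carries none for HSPH1 mRNA.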
